A study of Mus musculus with 18 samples.

Results

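The comparison set the testes of mice given a high fat diet with STZ and AOS (HFD_STZ_AOS) against the testes of control mice, and so measured the joint effect of all these treatments. All libraries of both groups were taken, 3 for each, which is 6 of the 18 testis libraries in the series. The mice were of the ICR stock, an outbred laboratory strain, and were 10 weeks old. HFD_STZ_AOS mice received the diet, STZ and AOS at 10 mg/kg, HFD_STZ mice the diet and STZ alone, AOS mice AOS alone at 10 mg/kg, and control mice were labelled as control alone. A further pair of groups had the diet and STZ with FMT, a transfer of faecal microbiota, labelled by AOS or by control (HFD_STZ_AOS_FMT and HFD_STZ_control_FMT). The labels do not spell out AOS, and give neither the length of the treatments nor which libraries came from separate animals, so the p-values below measure the spread between these libraries, which may be technical. The series asked how transferred microbiota act on a testis damaged by the diet and STZ.

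The mouse testis holds germ cells at every stage from spermatogonia through meiotic spermatocytes to round and elongating spermatids, nursed by Sertoli cells inside the tubules. Leydig cells between the tubules make testosterone from cholesterol through a chain of enzymes that includes Cyp11a1 and Cyp17a1. STZ (streptozotocin) kills the insulin-producing cells of the pancreas, and with a high fat diet it is used to model type 2 diabetes. The glandular kallikreins are serine proteases encoded by a tight cluster of near-identical genes, of which Klk1b21, Klk1b24 and Klk1b27 are known to be transcribed in mouse Leydig cells.

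Expression was given in 1 column per library, without a stated unit. The unit was read from the values as RPKM, the reads of a gene scaled to transcript length and to the mapped reads of the library. The 18 libraries had 13022 to 13490 genes at 1 RPKM or more, and the correlation of log2(RPKM + 1) across genes was 0.988 to 0.9946 within groups and 0.9842 to 0.9944 between them. No total read counts were given, so counting error could not be set for each value. The defining markers of each testis cell type were present in both groups, among them Sycp3 for spermatocytes, Prm1 for elongating spermatids, Cldn11 for Sertoli cells and Insl3 for Leydig cells. The epididymal gene Crisp1 had 2.93, 0.45 and 156.69 RPKM in HFD_STZ_AOS replicates 1, 2 and 3, against 2.71, 0.15 and 158.77 RPKM in control replicates 1, 2 and 3. Replicate 3 of each group thus stood apart in Crisp1, as did 3 FMT libraries, all 5 with over 10 times the median of 1.41 RPKM. The epididymal genes Cd52 and Adam7 were high in the same pair, while Lcn5 was listed at 0 in all 6 libraries. Summed over 33 epididymal genes the level was 423 to 906 RPKM in HFD_STZ_AOS libraries and 352 to 782 RPKM in control libraries. The adipose gene Fabp4 had 5.12, 3.73 and 72.55 RPKM in HFD_STZ_AOS libraries, against 11.28, 3.84 and 6.86 RPKM in control libraries. Summed over 18 adipose genes the level was 341 to 464 RPKM in HFD_STZ_AOS libraries and 332 to 350 RPKM in control libraries, so HFD_STZ_AOS replicate 3 stood apart in adipose genes as well. The part of these tissues in the results below was not tested, and results are given with and without these libraries.

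Of 13874 genes tested, 680 differed between HFD_STZ_AOS and control testes at a Benjamini-Hochberg adjusted p under 0.05 (limma on log2(RPKM + 1), 18 libraries), which is 4.9% of all genes tested. Of these, 466 were higher (3.36%) and 214 were lower (1.54%) in HFD_STZ_AOS testes. A gene past this threshold is named below as called, risen or fallen, and log2 differences are HFD_STZ_AOS minus control on the log2(RPKM + 1) scale, which understates the change of low genes. Most differences were small, with 84.3% of the called genes within 0.5 of 0 on the log2 scale, and the median over all tested genes was 0.02. A difference over 1 was found for 9 risen genes, and one under -1 for 5 fallen genes. At an unadjusted p under 0.05 the count was 2962 genes (21.3%). The groups did not overlap in 463 of the risen and 213 of the fallen genes, against 24.5% of all tested genes.

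**Figure D1:**
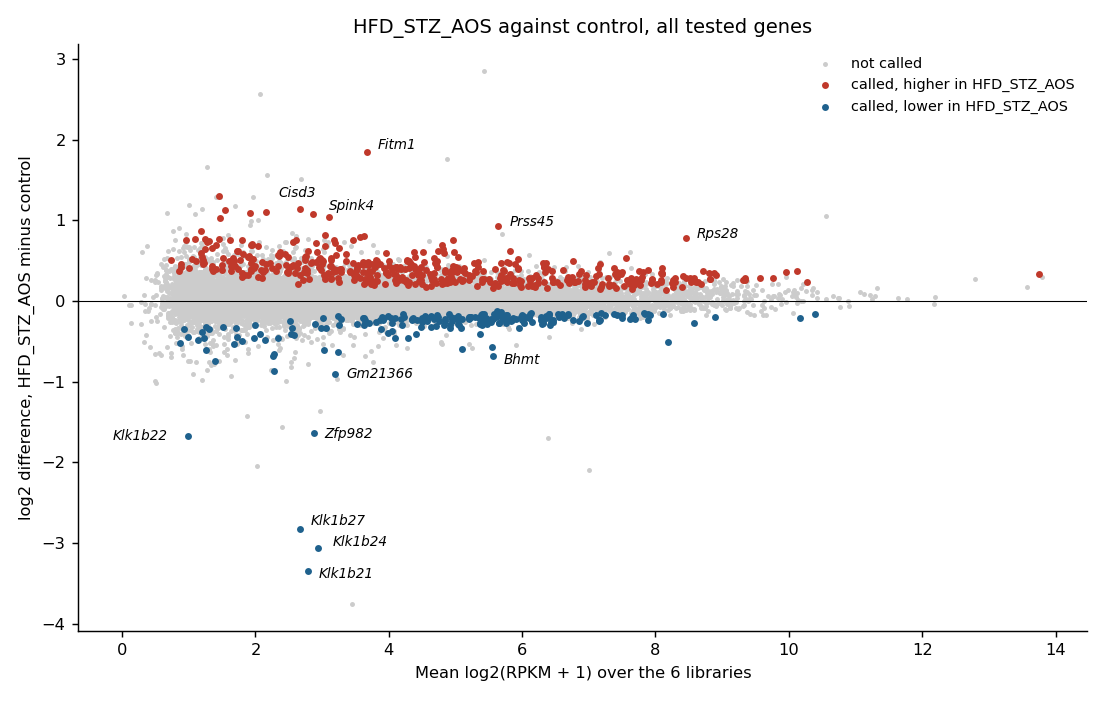
Log2 difference (HFD_STZ_AOS minus control, vertical axis) against the mean log2(RPKM + 1) over the 6 libraries (horizontal axis), with 1 point for each of 13874 tested genes. Red points are the 466 risen genes, blue points the 214 fallen genes and grey points the rest, and the kallikreins Klk1b21, Klk1b24 and Klk1b27 lie lowest among the called genes.

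These counts changed when single libraries were left out, which also leaves fewer libraries to compare, and the cause was not tested. Without HFD_STZ_AOS replicate 3 the count was 12 genes and without control replicates 1, 2 and 3 it was 70, 35 and 276, while without HFD_STZ_AOS replicates 1 and 2 it was 128 and 835. Without the 5 libraries high in Crisp1 it was 13 genes, and a fit on only the HFD_STZ_AOS and control libraries called 6. The split into higher and lower genes moved with the scaling: median-ratio scaling of the libraries called 334 higher and 316 lower genes, and taking out the trend of each library on transcript length called 212 higher and 214 lower. Transcripts of the risen genes had a median length of 1938 bases and those of the fallen genes 4250 bases, against 3101 bases over all tested genes.

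**Figure D2:**
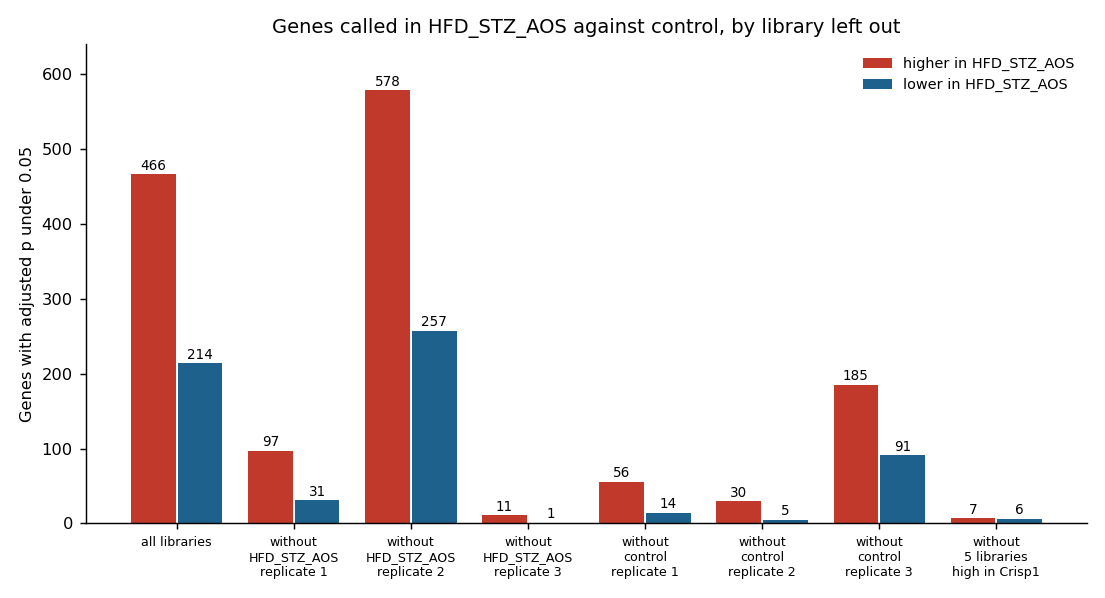
Number of genes with an adjusted p under 0.05 (vertical axis), higher (red) and lower (blue) in HFD_STZ_AOS testes, with all libraries and without the libraries named on the horizontal axis. The counts fall from 466 and 214 with all libraries to 11 and 1 without HFD_STZ_AOS replicate 3.

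The largest differences among the called genes were in glandular kallikreins on chromosome 7, of which Klk1b21, Klk1b24, Klk1b27 and Klk1b22 fell in HFD_STZ_AOS testes. Klk1b21 (chr7:44102328-44106583) had 1.85, 0.68 and 1.1 RPKM in HFD_STZ_AOS libraries, against 26.51, 21.56 and 15.95 RPKM in control libraries. For Klk1b24 (chr7:44188236-44192455) the values were 2.39, 1.59 and 1.15 RPKM in HFD_STZ_AOS libraries and 29.64, 23.39 and 13.73 RPKM in control libraries. Klk1b27 (chr7:44052290-44056712) stood at 1.82, 1.47 and 0.95 RPKM in HFD_STZ_AOS libraries, against 22.35, 16.75 and 10.65 RPKM in control libraries. In each of these genes every HFD_STZ_AOS library was far below every control library, although a lack of overlap was a condition for naming them. The log2 differences were -3.34 ± 0.52, -3.06 ± 0.47 and -2.82 ± 0.45 (± SE, n = 3 libraries each), each with an adjusted p of 0.0128 by limma. Klk1b22 (chr7:44112673-44116922) was low in both groups, at 0.37, 0 and 0 RPKM in HFD_STZ_AOS libraries and 4.26, 3.43 and 0.92 RPKM in control libraries (log2 difference -1.68 ± 0.35, adjusted p 0.0219 by limma). In bulk tissue a smaller number of cells of a type and less RNA in each such cell cannot be told apart.

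Other members of the family did not pass the test. Of 14 genes of the family 12 were tested, 4 fell, none rose, and 8 were not called, with log2 differences of -0.75 to 0.24 and adjusted p of 0.0566 to 0.947 by limma. Klk1b8, the neighbour whose sequence is given beside theirs, had 100.48, 93.89 and 91.72 RPKM in HFD_STZ_AOS libraries, against 85.77, 81.69 and 75.07 RPKM in control libraries (log2 difference 0.24 ± 0.10, adjusted p 0.163 by limma). Klk1b16 had 0.54, 0.63 and 0.45 RPKM in HFD_STZ_AOS libraries and 2.46, 1.1 and 1.37 RPKM in control libraries (adjusted p 0.0566, and 0.0476 with the replicate number as a block, by limma, 0.0441 to 0.212 over its alternatives). For Klk1, the tissue kallikrein, the groups overlapped, at 4.64, 5.42 and 2.16 RPKM in HFD_STZ_AOS libraries and 7.45, 8.18 and 4.48 RPKM in control libraries. Klk1b8, Klk1b16 and Klk1 were chosen for naming after their values had been seen.

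The promoters of the kallikreins that fell furthest are shown beside that of Klk1b8 because the 3 genes moved together and are nearly alike in sequence. Each is the 250 bases before the RefSeq transcription start (GRCm38.p6, plus strand). Capitals mark the longest stretch that Klk1b21, Klk1b24 and Klk1b27 share without a difference, 89 bases long, and in Klk1b8 the longest part of that stretch that it holds, 23 bases.
Klk1b21, chr7:44102042-44102291: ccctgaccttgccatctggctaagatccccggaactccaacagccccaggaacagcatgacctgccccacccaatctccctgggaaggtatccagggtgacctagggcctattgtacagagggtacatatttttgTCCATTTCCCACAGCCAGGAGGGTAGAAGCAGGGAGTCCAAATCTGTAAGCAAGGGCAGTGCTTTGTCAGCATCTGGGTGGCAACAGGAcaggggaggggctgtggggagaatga
Klk1b24, chr7:44187986-44188235: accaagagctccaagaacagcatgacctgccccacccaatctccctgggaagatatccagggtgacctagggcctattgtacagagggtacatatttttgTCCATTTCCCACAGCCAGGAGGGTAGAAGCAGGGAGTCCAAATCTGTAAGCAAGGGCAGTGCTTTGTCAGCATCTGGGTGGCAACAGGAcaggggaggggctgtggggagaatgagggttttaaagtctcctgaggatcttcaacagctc
Klk1b27, chr7:44052040-44052289: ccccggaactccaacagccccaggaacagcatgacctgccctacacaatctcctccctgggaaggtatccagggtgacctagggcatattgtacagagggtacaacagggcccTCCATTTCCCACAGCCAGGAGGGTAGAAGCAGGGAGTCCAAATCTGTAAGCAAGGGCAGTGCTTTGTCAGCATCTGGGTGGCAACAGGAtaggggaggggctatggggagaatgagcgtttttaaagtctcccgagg
Klk1b8, chr7:43950416-43950665: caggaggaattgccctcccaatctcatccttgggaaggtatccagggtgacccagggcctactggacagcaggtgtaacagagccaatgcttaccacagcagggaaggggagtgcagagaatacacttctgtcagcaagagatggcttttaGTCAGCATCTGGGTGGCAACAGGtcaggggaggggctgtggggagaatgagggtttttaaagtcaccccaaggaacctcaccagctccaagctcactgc
The shared stretch began 115, 150 and 137 bases before the start of Klk1b21, Klk1b24 and Klk1b27. Over the aligned promoter bases these genes were 91.9% to 97.7% identical to each other and 83.5% to 87.3% identical to Klk1b8. The promoter of Klk1b22, which fell too, was less like theirs than that of Klk1b8, at 81.3% to 82.5% identical. Transcripts of Klk1b21, Klk1b24 and Klk1b27 were 93.3% to 94.1% identical to each other and 87.0% to 87.8% identical to that of Klk1b8. The reads of one may thus have been counted for another, and the share of each is uncertain. Both strands were searched for AAGGTCA, a binding site of the steroidogenic factor NR5A1, which 4.08% of 32851 RefSeq promoters held in the same window. It was found once in the promoter of Klk1b21, at the end of the window far from the start, and in none of the other promoters shown. From these RefSeq starts the shared stretch lies further away in Klk1b24 and Klk1b27. The bases of these genes that match the site of Klk1b21 therefore fell outside the window and were not searched. The Klk1b21 window ends at 44102291, short of the gene start in the coordinates given earlier. Those of Klk1b24 and Klk1b27 end directly before theirs. The distance of the stretch in Klk1b21 and the site found there thus depend on the start that was taken. AGAACA, one arm of the androgen receptor site that 16.1% of all promoters held, was found once in that of Klk1b24 and in none of the other promoters shown.

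Across the series the HFD_STZ_AOS libraries were lowest and the control libraries highest in the group means of Klk1b21, Klk1b24 and Klk1b27, and the other groups lay between. Klk1b21 had 2.48, 5.12 and 10.78 RPKM in HFD_STZ libraries, 4.92, 9.28 and 6.21 RPKM in AOS libraries, 6.49, 3.88 and 2.91 RPKM in HFD_STZ_AOS_FMT libraries and 10.34, 1.82 and 1.01 RPKM in HFD_STZ_control_FMT libraries. These neighbouring groups overlapped each other, and 2 HFD_STZ_control_FMT libraries reached down into the range of the HFD_STZ_AOS libraries. Without HFD_STZ_AOS replicate 3 none of the 4 kallikrein calls held, with adjusted p of 0.0537 to 0.0793 by limma, against 0.00164 to 0.0891 over all alternatives. Klk1b22 alone was also lost without control replicate 1, without control replicate 2 and in both fits on only the HFD_STZ_AOS and control libraries.

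**Figure D3:**
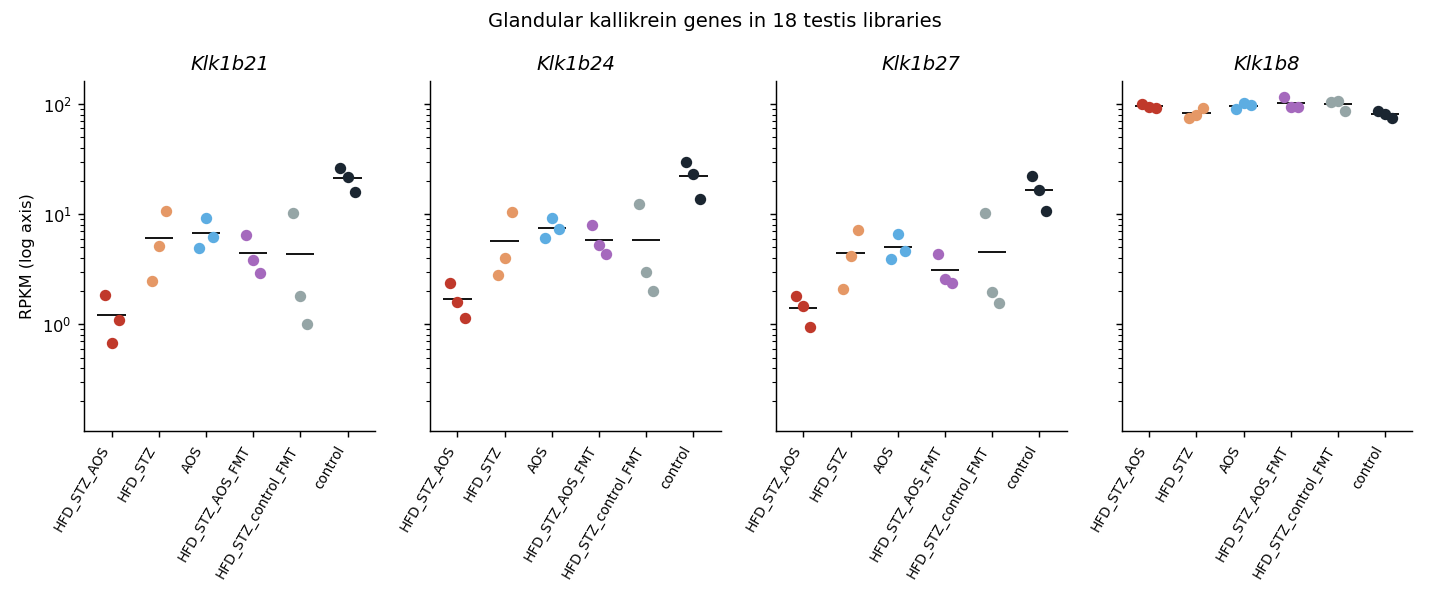
RPKM of Klk1b21, Klk1b24, Klk1b27 and Klk1b8 (vertical log axis) in the 6 groups (horizontal axis), with 1 point for each library and a line at the group mean. In the first 3 genes the HFD_STZ_AOS libraries lie between 0.68 and 2.39 RPKM and the control libraries between 10.65 and 29.64 RPKM, while Klk1b8 stays between 74.58 and 115.85 RPKM in all 18 libraries.

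Among the risen genes the largest difference was in Fitm1 (chr14:55575617-55576954), which encodes a protein of the endoplasmic reticulum that binds triglyceride and promotes lipid droplets. Fitm1 had 24.14, 13.95 and 36.52 RPKM in HFD_STZ_AOS libraries, against 4.86, 5.54 and 6.99 RPKM in control libraries, so the groups stood well apart (log2 difference 1.84 ± 0.23, adjusted p 0.00532 by limma). It was called in 13 of 15 alternatives (adjusted p 6.22e-05 to 0.0746 by limma), and without HFD_STZ_AOS replicate 3, the library high in adipose genes, its log2 difference was 1.52. Muc15, a membrane mucin on chromosome 2, had 3.08, 1.8 and 5.93 RPKM in HFD_STZ_AOS libraries and 1.04, 0.85 and 1.0 RPKM in control libraries (log2 difference 1.13 ± 0.24). A lack of overlap between the groups was a condition for naming these risen genes of largest size and the fallen ones below. Cisd3, a mitochondrial iron-sulphur protein on chromosome 11, had 6.87, 5.36 and 15.83 RPKM in HFD_STZ_AOS libraries against 3.57, 3.87 and 2.56 RPKM in control libraries. HFD_STZ_AOS replicate 3 was the highest library in Fitm1, Muc15 and Cisd3.

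The same library was highest in Vill, a villin-like actin protein, and in Aplp1, a relative of the amyloid precursor. Vill had 4.54, 2.75 and 7.06 RPKM in HFD_STZ_AOS libraries against 1.23, 1.74 and 1.81 RPKM in control libraries, and Aplp1 had 9.26, 7.8 and 19.84 RPKM in HFD_STZ_AOS libraries against 5.43, 5.22 and 4.43 RPKM in control libraries. It was not highest in Spink4, a Kazal-type protease inhibitor, which had 11.41, 9.46 and 8.01 RPKM in HFD_STZ_AOS libraries and 4.19, 3.37 and 4.43 RPKM in control libraries. Prss45, a serine protease, was the most abundant per length of the group at 72.44, 56.25 and 77.65 RPKM in HFD_STZ_AOS libraries, against 32.87, 48.01 and 27.66 RPKM in control libraries. Its lowest HFD_STZ_AOS library was close to its highest control library, and its call was lost with the replicate number as a block (adjusted p 0.0589 by limma, 0.0394 to 0.282 over its alternatives). Cpne5, a calcium-dependent copine, averaged 10.1 ± 1.6 RPKM in HFD_STZ_AOS and 5.3 ± 1.2 RPKM in control libraries (SD, n = 3 each). The remaining risen genes of largest size were low, with Rassf8, a Ras-association protein, at 3.05 ± 0.96 RPKM in HFD_STZ_AOS and 0.957 ± 0.28 RPKM in control libraries, and Sema3b, a secreted guidance protein, at 2.09 ± 0.46 RPKM in HFD_STZ_AOS and 0.683 ± 0.08 RPKM in control libraries (SD, n = 3 each).

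Gm13305 on chromosome 4 and Gm20809 on chromosome Y rose as well but lie in regions of near-identical copies, and their values are uncertain. Gm13305 had 5.28, 1.89 and 3.32 RPKM in HFD_STZ_AOS libraries, against 0.74, 0.65 and 0.83 RPKM in control libraries, and had at most 1.73 RPKM in the libraries of the other groups. Of these 12 risen genes 5 calls held without HFD_STZ_AOS replicate 1, 12 without replicate 2 and 1 without replicate 3, and 2, 2 and 7 held without control replicates 1, 2 and 3. Fitm1 alone held without the 5 libraries high in Crisp1, none held in the fit on only the HFD_STZ_AOS and control libraries, and Cisd3, Spink4 and Prss45 were lost on removal of the length trend.

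Outside the kallikreins, the fallen genes of largest size included enzymes and channels at low to moderate levels. Bhmt on chromosome 13 encodes the enzyme that remethylates homocysteine with betaine. It had 34.47, 44.52 and 30.7 RPKM in HFD_STZ_AOS libraries, against 65.35, 62.04 and 49.97 RPKM in control libraries (log2 difference -0.69 ± 0.17, adjusted p 0.0373 by limma). Aqp2, a water channel, had 3.07, 1.84 and 2.97 RPKM in HFD_STZ_AOS libraries and 4.71, 5.0 and 7.14 RPKM in control libraries. Kcnc2, a voltage-gated potassium channel, averaged 1.05 ± 0.37 RPKM in HFD_STZ_AOS and 2.4 ± 0.35 RPKM in control libraries (SD, n = 3 each). Bpifb5, a lipid-binding secreted protein of the BPI fold, had 2.19, 3.2 and 2.99 RPKM in HFD_STZ_AOS libraries and 6.92, 4.87 and 3.81 RPKM in control libraries, and was not called with the replicate number as a block (adjusted p 0.0607 by limma, 0.039 to 0.175 over its alternatives).

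The zinc finger gene Zfp982 on chromosome 4 had 2.68, 4.0 and 2.91 RPKM in HFD_STZ_AOS libraries, against 10.21, 9.89 and 16.7 RPKM in control libraries (log2 difference -1.64 ± 0.42, adjusted p 0.0388 by limma). It varied as widely outside these groups, from 4.16 to 16.41 RPKM among AOS libraries. Gm21366 on chromosome Y had 6.28, 3.9 and 7.44 RPKM in HFD_STZ_AOS libraries and 16.04, 12.18 and 7.89 RPKM in control libraries, so the groups nearly touched. Gm38481 averaged 6.56 ± 0.54 RPKM in HFD_STZ_AOS and 10.7 ± 1.3 RPKM in control libraries, and Pcdha12, a protocadherin of neural cell contacts, averaged 0.97 ± 0.46 RPKM in HFD_STZ_AOS and 1.95 ± 0.16 RPKM in control libraries (SD, n = 3 each). Zfp982, Gm21366 and Pcdha12 have close copies or shared exons, and their values are uncertain. Of these 8 fallen genes 1 call held without HFD_STZ_AOS replicate 1, 6 without replicate 2 and none without replicate 3, and 0, 0 and 5 held without control replicates 1, 2 and 3. Without the 5 libraries high in Crisp1 2 of the 8 held, and none in the fit on only the HFD_STZ_AOS and control libraries.

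In the steroid pathway of Leydig cells the androgen-forming enzyme Cyp17a1 fell, while most of the list did not pass the test. Of 28 tested genes 2 fell and none rose (7.14% called, beside 4.9% of all genes), with a median log2 difference of 0.03 beside 0.02 over all genes. Cyp17a1 had 253.85, 240.33 and 234.23 RPKM in HFD_STZ_AOS libraries, against 375.02, 306.94 and 362.0 RPKM in control libraries, and every HFD_STZ_AOS library was below every control library (log2 difference -0.51 ± 0.12, adjusted p 0.0328 by limma). Gramd1b, a carrier of cholesterol from the plasma membrane, fell by a smaller amount, with 50.0 ± 3.0 RPKM in HFD_STZ_AOS and 56.4 ± 1.3 RPKM in control libraries (SD, n = 3 each). Cyp11a1, which makes the first cut in cholesterol, had 99.68, 104.41 and 107.17 RPKM in HFD_STZ_AOS libraries and 140.86, 115.37 and 142.38 RPKM in control libraries. The groups did not overlap in Cyp11a1 but its adjusted p was 0.235 by limma. Star, the carrier of cholesterol into mitochondria, had 31.56, 30.58 and 65.2 RPKM in HFD_STZ_AOS libraries and 37.6, 43.07 and 52.77 RPKM in control libraries, with overlap. Insl3, the Leydig cell peptide hormone, overlapped too, at 3045.75, 3029.8 and 3642.55 RPKM in HFD_STZ_AOS libraries and 3344.52, 2929.11 and 3159.64 RPKM in control libraries. Cyp21a1, the steroid 21-hydroxylase, had 8.56, 5.78 and 7.03 RPKM in HFD_STZ_AOS libraries, against 2.48, 4.1 and 4.45 RPKM in control libraries, without overlap and with an adjusted p of 0.0588 by limma.

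The enzymes that build cholesterol were lower in sign in 18 of 23 genes, with a median log2 difference of -0.08, and 1 of the 23 passed the test (4.35%, beside 4.9% of all genes). This was Sc5d, the sterol desaturase of a late step, at 5.82, 4.79 and 6.24 RPKM in HFD_STZ_AOS libraries against 8.64, 8.32 and 10.25 RPKM in control libraries (log2 difference -0.61 ± 0.12, adjusted p 0.0191 by limma). Msmo1, a sterol oxidase of the same route, had 12.8, 14.27 and 17.62 RPKM in HFD_STZ_AOS libraries, against 22.46, 20.57 and 24.72 RPKM in control libraries (adjusted p 0.0582 by limma). Hmgcs1, the synthase at the head of the route, averaged 27.5 ± 2.6 RPKM in HFD_STZ_AOS and 33.4 ± 2.3 RPKM in control libraries (SD, n = 3 each, adjusted p 0.0982 by limma). In all 3 of these genes the groups did not overlap, and all had been named for a small p. Of the 23 genes, the HFD_STZ_AOS libraries were all below the control libraries in 7 and all above in 1. Over all tested genes these shares were 10.4% and 14.2%. None of 23 cholesterol regulation and transport genes was called, with 4 at an unadjusted p under 0.05, beside 4.9% and 21.3% of all genes. Of the calls of Cyp17a1, Gramd1b and Sc5d, 1 held without HFD_STZ_AOS replicate 1, 2 without replicate 2 and none without replicate 3 or without control replicate 1, 2 or 3. None held without the 5 libraries high in Crisp1 or in the fit on only the HFD_STZ_AOS and control libraries, and Gramd1b was lost when the length trend was removed.

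**Figure D4:**
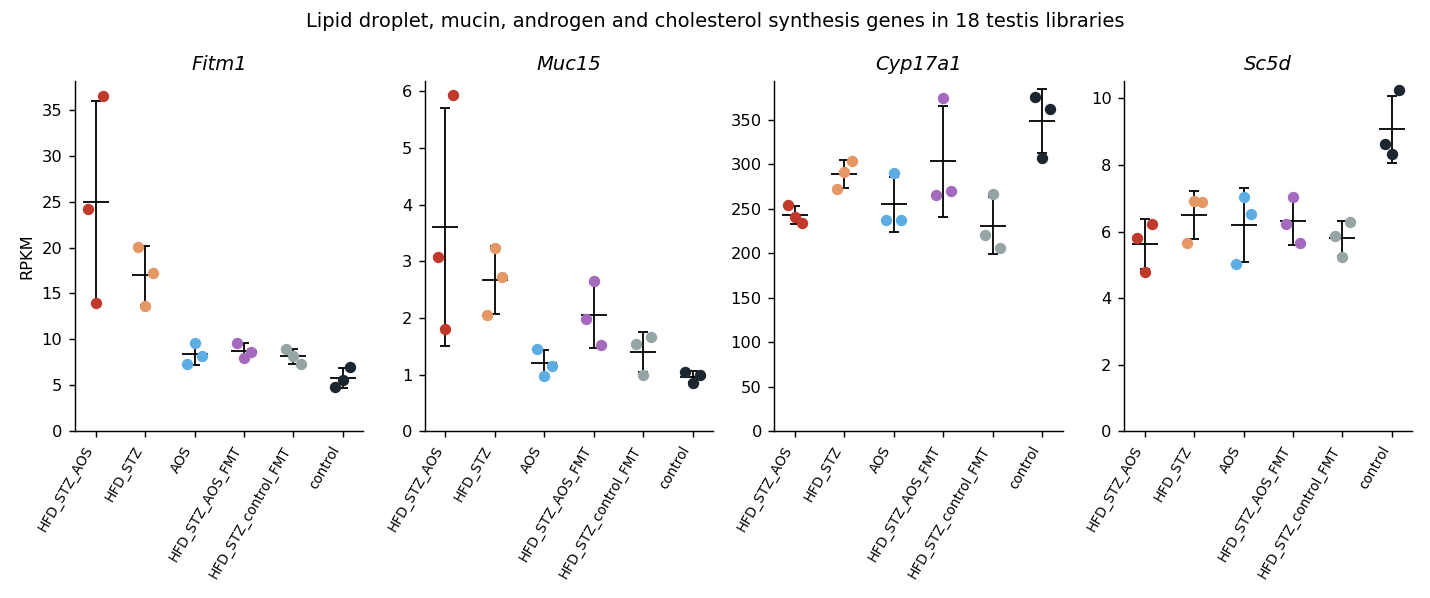
RPKM of Fitm1, Muc15, Cyp17a1 and Sc5d (vertical axes) in the 6 groups (horizontal axes), with 1 point for each library, a line at the mean and bars of 1 SD. Fitm1 lies between 13.95 and 36.52 RPKM in HFD_STZ_AOS libraries and between 4.86 and 6.99 RPKM in control libraries, and Cyp17a1 between 234.23 and 253.85 RPKM in HFD_STZ_AOS libraries and between 306.94 and 375.02 RPKM in control libraries.

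In the lists of lipid stores and fuel use 2.44% to 10.9% of the tested genes were called, beside 4.9% of all genes, and most of these calls were small rises. Besides Fitm1, Plin3, a coat protein of lipid droplets, rose among 32 genes of lipid droplets and triglyceride (median log2 difference 0.01), at 17.09, 14.49 and 16.65 RPKM in HFD_STZ_AOS libraries against 9.83, 11.75 and 12.97 RPKM in control libraries. Of 41 genes of fatty acid oxidation and ketones 1 rose and none fell (median 0.05). It was Acadvl, the dehydrogenase of very long acyl chains, which had 13.9 ± 2.3 RPKM in HFD_STZ_AOS and 10.5 ± 0.62 RPKM in control libraries (SD, n = 3 each). Among 19 genes of fatty acid synthesis 1 fell and none rose (median -0.03). It was Elovl2, an elongase of polyunsaturated chains that the mouse testis needs, at 71.54, 72.07 and 73.91 RPKM in HFD_STZ_AOS libraries against 84.39, 86.07 and 81.65 RPKM in control libraries. Thrsp, a regulator of fat synthesis, had 3.13, 3.07 and 8.24 RPKM in HFD_STZ_AOS libraries and 1.55, 1.41 and 2.23 RPKM in control libraries (adjusted p 0.128 by limma), and its highest value was in the library high in adipose genes.

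In glucose transport and glycolysis 5 of 46 genes rose and none fell (median log2 difference 0.02), against 3.36% and 1.54% of all genes, and the count moved with the processing. Under median-ratio scaling 2 genes were called higher and none lower, with the length trend removed 2 were higher and 1 lower, and with the replicate number as a block 3 were higher and 1 lower. The risen genes were Tpi1, Mpc2, Pdk3, Pfkfb3 and Pkm, of which Pkm was named after its value had been seen. Tpi1, a glycolytic isomerase, had 200.95, 181.98 and 232.96 RPKM in HFD_STZ_AOS libraries, against 155.58, 163.76 and 157.66 RPKM in control libraries (log2 difference 0.36 ± 0.06, adjusted p 0.0149 by limma). Mpc2, a subunit of the mitochondrial pyruvate carrier, averaged 207.0 ± 8.1 RPKM in HFD_STZ_AOS and 173.0 ± 3.5 RPKM in control libraries (SD, n = 3 each). The log2 differences of Pfkfb3, which makes the activator of phosphofructokinase, of Pdk3, a kinase that restrains pyruvate dehydrogenase, and of Pkm, the pyruvate kinase, were 0.21, 0.18 and 0.16. Of 31 genes of insulin and IGF signalling 1 rose and 1 fell. The translation repressor Eif4ebp1 had 16.82, 13.28 and 17.3 RPKM in HFD_STZ_AOS libraries and 11.43, 10.42 and 10.81 RPKM in control libraries, and the insulin-degrading enzyme Ide had 64.34, 64.88 and 64.63 RPKM in HFD_STZ_AOS libraries and 72.44, 74.46 and 70.62 RPKM in control libraries. Of the 10 calls in lipid and fuel genes other than Fitm1, 1 held without HFD_STZ_AOS replicate 1, 8 without replicate 2 and none without replicate 3, and 0, 1 and 3 held without control replicates 1, 2 and 3. With the replicate number as a block Pdk3 and Pfkfb3 were lost (adjusted p 0.0529 and 0.0543 by limma, 0.0304 to 0.205 over their alternatives), Mpc2, Pdk3 and Pkm were lost under median-ratio scaling, these and Acadvl on removal of the length trend, and none of the 10 held without the 5 libraries high in Crisp1 or in the fit on only the HFD_STZ_AOS and control libraries.

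The list with the most calls was that of the ribosomal proteins. Of 84 tested, 31 rose and none fell, against 3.36% and 1.54% of all genes, and 80 were higher in sign, with a median log2 difference of 0.21. Rpl13 had 488.3, 482.98 and 535.15 RPKM in HFD_STZ_AOS libraries, against 397.69, 385.85 and 394.29 RPKM in control libraries. For Rps21 the values were 218.36, 223.39 and 231.98 RPKM in HFD_STZ_AOS libraries and 167.89, 139.68 and 158.64 RPKM in control libraries. The groups stood apart in both, with log2 differences of 0.35 ± 0.05 and 0.53 ± 0.09 and adjusted p of 0.0128 and 0.0149 by limma. Rpl23a and Rpl13a differed by 0.27 and 0.29. Rps28, named after its values had been seen, showed the largest rise of the list at 455.03, 451.89 and 479.74 RPKM in HFD_STZ_AOS libraries and 282.71, 248.39 and 272.71 RPKM in control libraries (log2 difference 0.79 ± 0.16). Many ribosomal genes have processed copies elsewhere in the genome, and the counting could split their reads.

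Genes of oxidative phosphorylation were higher in sign in 76 of 82 cases, with a median log2 difference of 0.18, and 8 rose and none fell, against 3.36% and 1.54% of all genes. Ndufv3, a subunit of complex I, had 48.3, 46.64 and 45.21 RPKM in HFD_STZ_AOS libraries against 33.51, 31.93 and 33.68 RPKM in control libraries (log2 difference 0.49 ± 0.09, adjusted p 0.0169 by limma). Atp5l, a subunit of ATP synthase, had 125.53, 134.32 and 140.17 RPKM in HFD_STZ_AOS libraries and 105.56, 101.06 and 101.77 RPKM in control libraries. Cox4i1 of cytochrome oxidase and Atp5d of ATP synthase differed by 0.26 and 0.24. Both lists are made of short transcripts, of median length 1054 and 1003 bases, and with the length trend removed 5 of the 84 ribosomal genes were called with a median of 0.10, and 2 of the 82 oxidative phosphorylation genes with a median of 0.04. Under median-ratio scaling 13 ribosomal and 4 oxidative phosphorylation genes were called. Of the 9 genes named here 4 calls held without HFD_STZ_AOS replicate 1, 9 without replicate 2 and 1 without replicate 3, and 3, 1 and 7 held without control replicates 1, 2 and 3. None held without the 5 libraries high in Crisp1 and 2 held in the fit on only the HFD_STZ_AOS and control libraries.

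**Figure D5:**
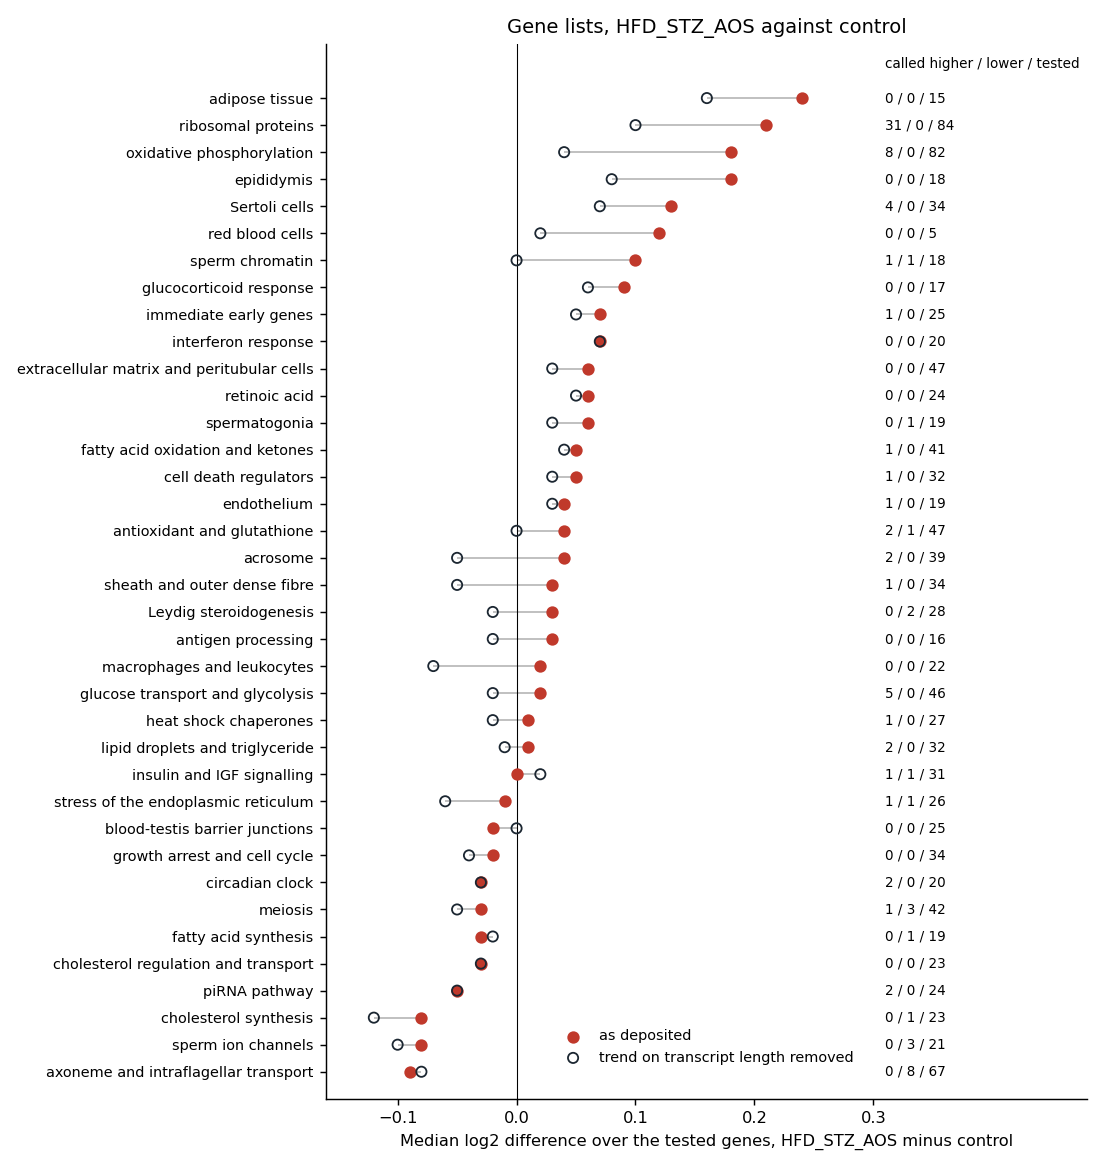
Median log2 difference (HFD_STZ_AOS minus control, horizontal axis) over the tested genes of each list (vertical axis), as deposited (filled red points) and with the trend of each library on transcript length taken out (open points), with the counts of genes called higher, called lower and tested at the right. The ribosomal list moves from 0.21 to 0.10 and the oxidative phosphorylation list from 0.18 to 0.04 on removal of the trend.

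In germ cells the calls were small and went both ways. Of 42 meiosis genes 3 fell and 1 rose, against 1.54% and 3.36% of all genes, with a median log2 difference of -0.03, and with the length trend removed 6 were called lower and none higher. Sycp1, the transverse filament of the synaptonemal complex, had 52.42, 56.35 and 54.18 RPKM in HFD_STZ_AOS libraries, against 65.74, 74.49 and 66.3 RPKM in control libraries (log2 difference -0.33 ± 0.07, adjusted p 0.0217 by limma). Sycp2, of the axial element, had 70.92, 75.3 and 67.43 RPKM in HFD_STZ_AOS libraries and 84.43, 89.92 and 84.99 RPKM in control libraries. Meiob, which binds recombination intermediates, averaged 11.9 ± 1.3 RPKM in HFD_STZ_AOS and 14.4 ± 0.71 RPKM in control libraries (SD, n = 3 each). Syce3, a short central element protein of the same complex, rose, at 183.86, 167.68 and 151.99 RPKM in HFD_STZ_AOS libraries and 122.31, 116.45 and 125.82 RPKM in control libraries. Sycp3 overlapped between groups, at 183.32, 192.22 and 167.48 RPKM in HFD_STZ_AOS libraries and 189.97, 194.87 and 183.91 RPKM in control libraries, and so did Stra8, the gatekeeper of meiotic entry, at 8.51 ± 0.62 RPKM in HFD_STZ_AOS and 7.76 ± 1.8 RPKM in control libraries (SD, n = 3 each).

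Of 19 spermatogonial genes 1 fell and none rose (5.26% called, beside 4.9% of all genes). It was Utf1, a chromatin factor of undifferentiated cells, which was at the limit of the filter with 0.88, 0.69 and 0.56 RPKM in HFD_STZ_AOS libraries and 1.33, 1.14 and 1.52 RPKM in control libraries. Uchl1, a ubiquitin hydrolase of spermatogonia, averaged 30.0 ± 0.37 RPKM in HFD_STZ_AOS and 26.9 ± 3.1 RPKM in control libraries (SD, n = 3 each, adjusted p 0.255 by limma). In the piRNA pathway, which silences transposons, 2 of 24 genes rose and none fell (8.33% called, beside 4.9% of all genes), although 16 were lower in sign. Gtsf1, a partner of the Piwi proteins, had 439.74, 443.35 and 408.36 RPKM in HFD_STZ_AOS libraries against 365.47, 350.17 and 378.65 RPKM in control libraries, and Spocd1, a factor of piRNA-directed DNA methylation, averaged 2.82 ± 0.31 RPKM in HFD_STZ_AOS and 1.91 ± 0.2 RPKM in control libraries (SD, n = 3 each). Of these 7 calls in meiosis, spermatogonia and the piRNA pathway 1 held without HFD_STZ_AOS replicate 1, 4 without replicate 2 and 1 without replicate 3, and 1, 0 and 3 held without control replicates 1, 2 and 3. Syce3 and Gtsf1 were not called once the length trend was removed (adjusted p 0.221 and 0.327 by limma, 0.0158 to 0.327 over their alternatives), Syce3 was also lost under median-ratio scaling, and none of the 7 held without the 5 libraries high in Crisp1 or in the fit on only the HFD_STZ_AOS and control libraries.

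Spermatid genes of chromatin packing were among the most abundant transcripts per length, and 1 of them rose. Tnp2, a transition protein that replaces histones, was this gene, at 17042.05, 14097.79 and 15547.34 RPKM in HFD_STZ_AOS libraries against 13289.02, 12218.1 and 11609.96 RPKM in control libraries (log2 difference 0.33 ± 0.08, adjusted p 0.0351 by limma). Tnp1 had 8022.26, 7237.36 and 8067.81 RPKM in HFD_STZ_AOS libraries and 6830.47, 6377.37 and 6085.24 RPKM in control libraries (adjusted p 0.0588, and 0.0471 with the replicate number as a block, by limma, 0.0433 to 0.723 over its alternatives). Prm1, the protamine, had 16543.98, 14125.8 and 16703.38 RPKM in HFD_STZ_AOS libraries and 13687.04, 13050.84 and 11649.9 RPKM in control libraries, with an adjusted p of 0.0606 by limma. In none of these genes did the groups overlap. Of the 18 genes of sperm chromatin, the HFD_STZ_AOS libraries were all above the control libraries in 4 and all below in 2. Over all tested genes these shares were 14.2% and 10.4%. Pabpc1, a poly(A)-binding protein, fell, at 1259.36, 1306.71 and 1248.93 RPKM in HFD_STZ_AOS libraries and 1417.21, 1425.24 and 1423.92 RPKM in control libraries. Over the 18 genes of sperm chromatin 1 rose and 1 fell (11.1% called, beside 4.9% of all genes).

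Of 39 acrosome genes 2 rose and none fell (5.13% called, beside 4.9% of all genes), and with the length trend removed 1 was called higher and 1 lower, and 27 of the 39 were lower in sign. The risen genes were Prss55, a sperm protease, at 194.65, 173.4 and 197.52 RPKM in HFD_STZ_AOS libraries against 151.92, 150.51 and 149.13 RPKM in control libraries, and Tmem190, a membrane protein, at 143.0 ± 9.6 RPKM in HFD_STZ_AOS and 121.0 ± 5.7 RPKM in control libraries (SD, n = 3 each). Acr, the acrosomal protease acrosin, had 185.41, 180.46 and 166.9 RPKM in HFD_STZ_AOS libraries and 191.51, 189.57 and 198.95 RPKM in control libraries, without overlap and with an adjusted p of 0.127 by limma. In the sheath and outer dense fibre list 1 of 34 genes rose and none fell (2.94% called, beside 4.9% of all genes). The risen gene was the kinase Tssk1, at 297.0 ± 4.0 RPKM in HFD_STZ_AOS and 270.0 ± 2.4 RPKM in control libraries. Spata19, a protein of sperm mitochondria, averaged 779.0 ± 21.0 RPKM in HFD_STZ_AOS and 682.0 ± 30.0 RPKM in control libraries (SD, n = 3 each, adjusted p 0.0643 by limma). Of the 5 spermatid calls 1 held without HFD_STZ_AOS replicate 1, 3 without replicate 2 and none without replicate 3, and 1, 0 and 1 held without control replicates 1, 2 and 3. Tnp2, Tmem190 and Tssk1 were lost both under median-ratio scaling and on removal of the length trend, and none of the 5 held without the 5 libraries high in Crisp1 or in the fit on only the HFD_STZ_AOS and control libraries.

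The called genes of the axoneme and of the sperm ion channels had fallen by small amounts. Of 67 genes of the axoneme and intraflagellar transport 8 fell and none rose, against 1.54% and 3.36% of all genes, and 54 were lower in sign, with a median log2 difference of -0.09. Under median-ratio scaling 13 of the 67 were called lower. Wdr60, a chain of the transport motor dynein-2, had 28.13, 26.4 and 24.49 RPKM in HFD_STZ_AOS libraries, against 33.07, 34.5 and 29.85 RPKM in control libraries (log2 difference -0.29 ± 0.06, adjusted p 0.0216 by limma). Cfap65, a protein of the sperm flagellum, had 78.25, 80.28 and 75.56 RPKM in HFD_STZ_AOS libraries and 89.83, 90.64 and 87.53 RPKM in control libraries. The groups stood apart in both genes. Of the 67 genes, the HFD_STZ_AOS libraries were all below the control libraries in 30 and all above in 3. Over all tested genes these shares were 10.4% and 14.2%. Kif3b, a kinesin-2 motor, and Hydin, of the central pair apparatus, fell by 0.19 and 0.21 on the log2 scale.

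Of 21 ion channels and exchangers of sperm 3 fell and none rose, against the same shares, with a median log2 difference of -0.08. Slc9c1, the sperm sodium-proton exchanger, had 31.9, 28.54 and 27.47 RPKM in HFD_STZ_AOS libraries against 36.41, 38.04 and 36.85 RPKM in control libraries (log2 difference -0.33 ± 0.07, adjusted p 0.0251 by limma). Pkdrej, a polycystin-like protein of the sperm head, had 11.74, 11.7 and 12.74 RPKM in HFD_STZ_AOS libraries and 16.38, 16.71 and 13.96 RPKM in control libraries. Catsperg1, an auxiliary subunit of the CatSper calcium channel, averaged 63.0 ± 3.4 RPKM in HFD_STZ_AOS and 72.8 ± 2.7 RPKM in control libraries (SD, n = 3 each), and was not called with the replicate number as a block (adjusted p 0.0547 by limma, 0.0395 to 0.236 over its alternatives). Of the 7 calls named here 2 held without HFD_STZ_AOS replicate 1, 5 without replicate 2 and none without replicate 3, and 0, 0 and 4 held without control replicates 1, 2 and 3. None held without the 5 libraries high in Crisp1 or in the fit on only the HFD_STZ_AOS and control libraries, and on removal of the length trend 4 axoneme and 2 channel genes were called, with medians of -0.08 and -0.10. Of the genes named, Kif3b, Hydin and Catsperg1 were lost there.

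Among somatic cells, Sertoli genes gave the most calls. Of 34 tested 4 rose and none fell, against 3.36% and 1.54% of all genes, 25 were higher in sign, and the median log2 difference was 0.13. In 12 of the 34 the HFD_STZ_AOS libraries were all above the control libraries and in none all below, against 14.2% and 10.4% of all tested genes. Defb19, a beta-defensin of Sertoli cells, had 294.74, 316.36 and 311.3 RPKM in HFD_STZ_AOS libraries, against 257.73, 243.88 and 223.38 RPKM in control libraries (log2 difference 0.35 ± 0.07, adjusted p 0.0219 by limma). Serpina5, an inhibitor of serine proteases, had 55.59, 69.02 and 83.52 RPKM in HFD_STZ_AOS libraries and 38.8, 45.08 and 49.98 RPKM in control libraries. Ctsl, the protease cathepsin L, averaged 159.0 ± 21.0 RPKM in HFD_STZ_AOS and 126.0 ± 4.2 RPKM in control libraries, and Aard averaged 94.2 ± 4.2 RPKM in HFD_STZ_AOS and 80.1 ± 2.0 RPKM in control libraries (SD, n = 3 each). The defining Sertoli genes overlapped between the groups, with the transcription factor Sox9 at 2.76 ± 0.17 RPKM in HFD_STZ_AOS and 2.9 ± 0.4 RPKM in control libraries, the tight junction claudin Cldn11 at 36.2 ± 4.6 RPKM in HFD_STZ_AOS and 33.1 ± 0.93 RPKM in control libraries, and the hormone Amh at most 1.37 RPKM in all 6 libraries (SD, n = 3 each). Among 25 genes of the blood-testis barrier none was called, with 1 at an unadjusted p under 0.05, beside 4.9% and 21.3% of all genes.

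In endothelium 1 of 19 genes rose and none fell (5.26% called, beside 4.9% of all genes). The risen gene was the nitric oxide synthase Nos3, at 1.09, 1.25 and 1.08 RPKM in HFD_STZ_AOS libraries against 0.49, 0.65 and 0.66 RPKM in control libraries. Sox17, an endothelial transcription factor, had 4.6, 4.93 and 3.82 RPKM in HFD_STZ_AOS libraries and 6.05, 6.13 and 6.1 RPKM in control libraries (adjusted p 0.0535 by limma). No gene was called among 22 of macrophages and leukocytes, 16 of antigen processing, 20 of the interferon response or 47 of extracellular matrix and peritubular cells. At an unadjusted p under 0.05 the counts were 0, 2, 3 and 6. Over all genes 4.9% were called and 21.3% had such a p, so few calls were to be expected in lists this short. The macrophage gene Cd68 overlapped, at 2.53, 2.99 and 4.94 RPKM in HFD_STZ_AOS libraries and 3.49, 3.25 and 3.2 RPKM in control libraries. The MHC class II genes Cd74 and H2-Aa did not overlap, with Cd74 at 18.35, 13.74 and 17.15 RPKM in HFD_STZ_AOS libraries against 9.65, 10.21 and 9.3 RPKM in control libraries, but their adjusted p were 0.236 and 0.274 by limma. The MHC class II genes H2-Eb1 and H2-Ob had the other sign, with log2 differences of -0.219 and -0.282 (adjusted p 0.705 and 0.441 by limma). Among 18 epididymal, 15 adipose and 5 red blood cell genes none was called, with 3, 1 and 0 at an unadjusted p under 0.05, and without HFD_STZ_AOS replicate 3 the median log2 differences of these lists were -0.36, -0.19 and -0.04 in place of 0.18, 0.24 and 0.12. Of the 5 somatic calls 3 held without HFD_STZ_AOS replicate 1, 3 without replicate 2 and none without replicate 3, and 1, 0 and 1 held without control replicates 1, 2 and 3. None held without the 5 libraries high in Crisp1 or in the fit on only the HFD_STZ_AOS and control libraries, and Defb19 and Aard were lost on removal of the length trend, which left 2 Sertoli genes called.

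Stress genes showed single calls in both directions. Of 47 antioxidant and glutathione genes 2 rose and 1 fell (6.38% called, beside 4.9% of all genes), with a median log2 difference of 0.04. Sod1, the cytosolic superoxide dismutase, had 319.73, 341.02 and 340.64 RPKM in HFD_STZ_AOS libraries, against 294.91, 279.59 and 261.32 RPKM in control libraries (log2 difference 0.26 ± 0.05, adjusted p 0.0216 by limma). Prdx4, a peroxiredoxin of the secretory pathway, averaged 139.0 ± 7.6 RPKM in HFD_STZ_AOS and 118.0 ± 5.6 RPKM in control libraries (SD, n = 3 each). Txnrd3, the thioredoxin-glutathione reductase of the testis, fell, at 172.25, 173.16 and 163.01 RPKM in HFD_STZ_AOS libraries and 188.44, 197.34 and 188.0 RPKM in control libraries. In the endoplasmic reticulum list 1 of 26 rose, the transcription factor Atf4 (log2 difference 0.19), and 1 fell, the chaperone Hsp90b1 (-0.17), which had 227.83, 226.09 and 225.59 RPKM in HFD_STZ_AOS libraries and 260.84, 266.4 and 240.85 RPKM in control libraries. Mcl1, a survival factor of the Bcl2 family, was the 1 riser of 32 cell death regulators, at 26.11, 24.23 and 29.63 RPKM in HFD_STZ_AOS libraries against 22.02, 22.44 and 21.51 RPKM in control libraries, and Hspb9, a small heat shock protein of the testis, was the 1 riser of 27 chaperones (log2 difference 0.23). In the endoplasmic reticulum, cell death and chaperone lists 7.69%, 3.12% and 3.7% of the tested genes were called, beside 4.9% of all genes. Under median-ratio scaling, and likewise with the length trend removed, no chaperone was called higher and 1 was called lower.

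Of 20 clock genes 2 rose and none fell (10.0% called, beside 4.9% of all genes), while 13 were lower in sign, with a median log2 difference of -0.03. The 2 risen genes encode output transcription factors that bind D-boxes. Dbp had 4.25, 5.71 and 5.7 RPKM in HFD_STZ_AOS libraries, against 3.27, 3.24 and 3.03 RPKM in control libraries (log2 difference 0.56 ± 0.12, adjusted p 0.023 by limma), and Nfil3 had 3.21, 3.17 and 3.58 RPKM in HFD_STZ_AOS libraries and 1.64, 1.71 and 2.33 RPKM in control libraries. The hours at which tissue was taken are not in the sources used here. Dusp2, a phosphatase of MAP kinases, was the 1 riser of 25 immediate early genes (4.0% called, beside 4.9% of all genes). It averaged 2.29 ± 0.28 RPKM in HFD_STZ_AOS and 1.42 ± 0.27 RPKM in control libraries (SD, n = 3 each), and was not called with the replicate number as a block (adjusted p 0.0554 by limma, 0.0437 to 0.155 over its alternatives). No gene was called among 24 of retinoic acid, 17 of the glucocorticoid response or 34 of growth arrest and the cell cycle. At an unadjusted p under 0.05 the counts were 4, 2 and 6. Over all genes 4.9% were called and 21.3% had such a p. Of the 10 calls in stress, clock and immediate early genes 2 held without HFD_STZ_AOS replicate 1, 9 without replicate 2 and none without replicate 3, and 1, 0 and 2 held without control replicates 1, 2 and 3. None held without the 5 libraries high in Crisp1 or in the fit on only the HFD_STZ_AOS and control libraries, and on removal of the length trend Prdx4, Atf4, Hspb9, Dusp2 and Nfil3 were lost, and Atf4, Hspb9 and Dusp2 under median-ratio scaling.

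HFD_STZ_AOS was also set against each of its components. Against HFD_STZ testes no gene was called (0.0% of 13874), with 1734 genes at an unadjusted p under 0.05 by limma (12.5%). Against AOS testes 75 genes were called (0.541%), 67 of them higher (0.483%) and 8 lower (0.0577%) in HFD_STZ_AOS, with 2242 at an unadjusted p under 0.05. Of the risen and fallen genes of largest size named above, 4 were also higher in HFD_STZ_AOS than in AOS testes, Fitm1, Gm13305, Vill and Cpne5, and 1 was lower, Pcdha12. This comparison uses the same HFD_STZ_AOS libraries by which the genes had been picked, so such agreement is partly built in. Fitm1 had 24.14, 13.95 and 36.52 RPKM in HFD_STZ_AOS libraries against 20.06, 13.64 and 17.22 RPKM in HFD_STZ libraries, which overlapped, and 7.33, 9.65 and 8.16 RPKM in AOS libraries, which did not (log2 difference to AOS 1.37 ± 0.23, adjusted p 0.0394 by limma). Klk1b21 differed by -1.55 ± 0.52 from HFD_STZ and by -1.82 ± 0.52 from AOS on the log2 scale, with adjusted p of 0.256 and 0.103 by limma.

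Each component set alone against the control libraries, which these comparisons share, gave no call, with 1151 genes for HFD_STZ (8.3%) and 1923 genes for AOS (13.9%) at an unadjusted p under 0.05. The log2 differences of Klk1b21 were -3.34 for HFD_STZ_AOS, -1.80 for HFD_STZ and -1.53 for AOS against control, and those of Fitm1 were 1.84, 1.40 and 0.47. For Cyp17a1 they were -0.51, -0.27 and -0.45, and for Sc5d -0.61, -0.43 and -0.49. The interaction term between AOS and the treatment with diet and STZ, which tests whether the joint difference departs from the sum of both single ones, called no gene by limma, with 640 genes (4.61%) at an unadjusted p under 0.05. The 75 calls against AOS fell to 25 with the replicate number as a block, to 16 and 2 without HFD_STZ_AOS replicates 1 and 3 and to 3, 9 and 5 without control replicates 1, 2 and 3, and were 398 without HFD_STZ_AOS replicate 2. Median-ratio scaling gave 12 calls, no filter 2, removal of the length trend 4 and omission of the 5 libraries high in Crisp1 1.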

How the data were processed

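RNA of 18 mouse testis samples was sequenced, 3 libraries for each of 6 groups, and the labels gave the group and replicate number of each. Trizol followed by a column kit yielded total RNA from the frozen tissue, and the libraries followed standard Illumina steps, per the labels' protocols. Bowtie 0.12.2 and the build mm10 are named, per the submitters' processing notes, while the counting tool, annotation and strandedness are not given in the sources used here. Deposited by the authors was a single table of values per gene symbol and library, rounded to 0.01, whose unit was read from the values as RPKM. RPKM depends on transcript length and on the library total, so abundant transcripts or the yield of long ones move all other values. The labels give no batch, and reads of overlapping, antisense or near-identical genes may have been shared between them.

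Of 20985 rows the 6 of 3 repeated symbols were left out, and 22 rows whose symbols had become dates were named nowhere. The remaining table held 20979 genes, of which 384 were at 0 throughout. A value of 1 RPKM or more in 3 or more of 18 libraries left 13874 genes (66.1%), which were tested on log2(RPKM + 1) by limma 3.58.1 (R 4.3.3) with prior variance following the mean, 1 coefficient per group, 12 residual and 3.71 prior degrees of freedom, two-sided tests and Benjamini-Hochberg adjustment at 0.05. The plan held a count test and this one, which the unit required. On simulated data with 200 changed genes the fit recovered 88.5% of changes of 0.5 on the log2 scale. It recovered 100% of those of 1 or 2, and called 7 unchanged genes. The noise was drawn independently for each gene and library. The simulation thus does not cover factors shared between genes of a library, nor differences under 0.5, the size of most calls here.

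Genes were named by a rule: in each direction the 12 called genes of largest log2 difference whose groups did not overlap and whose higher group averaged 1 RPKM or more, the 4 members of smallest p of each gene list, and a panel of cell markers. Some genes that the rule chose are summarised by counts, and 1 is not reported here. The members, the gene lists and the rule were chosen with earlier results of these data known. Same-numbered HFD_STZ_AOS and control libraries deviated from their group means together (correlations of 0.171, 0.212 and 0.38 across genes, beside 0.121 and 0.129 between replicates 1 and 2 and -0.279 to -0.221 between replicate 3 and the others), so the replicate number, which the labels give, was taken to pair the libraries, and a fit with it as a block was an alternative. Replicate 3 of both groups was high in Crisp1, and the part of this in the correlations was not tested. The labels do not say that equal numbers mark paired animals. Deviations from a group mean cancel within the group, so these correlations cannot establish a pairing. The other alternatives were median-ratio scaling, no filter, a pseudocount of 0.1, a fit restricted to the 2 groups, robust empirical Bayes, taking out the trend of each library on transcript length (lowess, span 0.3), omission of the 5 libraries high in Crisp1 and omission of each library in turn. The block on only the 2 groups was added after seeing the data. GENCODE vM21 (GRCm38/mm10) supplied lengths and coordinates (97.9% of tested genes had a length), and promoters and transcript starts were from RefSeq GRCm38.p6, with an entry for each of the 4 kallikreins whose promoters are shown. Tables and plots used Python 3.11.15, numpy 2.4.6, pandas 2.3.3, biopython 1.88 and matplotlib 3.10.9.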

Additional observations from a re-analysis of the deposited data

How the results depend on the processing

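Between HFD_STZ_AOS and control testes 680 genes were called, and the number called was 650 under median-ratio scaling (542 of them among the 680), 675 with a pseudocount of 0.1 (667) and 675 with robust empirical Bayes (657), but 414 without the filter (387), 426 with the length trend removed (347), 13 without the 5 libraries high in Crisp1 (11), 6 in the fit on only the 2 groups, 4 with the replicate block in that fit, and 12 to 835 without single libraries. The replicate block over all 18 libraries, which treats the replicate number as a pairing, called 688 genes (465 higher, 223 lower), 589 of them among the 680. It changed no call of a named gene beyond those given above. Against HFD_STZ the count of 0 became 1 without the filter and 2 without the libraries high in Crisp1. Against AOS the count of 75 became 12 under median-ratio scaling, 2 without the filter, 25 with the replicate block, 4 with the length trend removed, 1 without the libraries high in Crisp1 and 2 to 398 without single libraries. Of the 80 called genes named above 69 were still called under median-ratio scaling, 54 without the filter, 78 with a pseudocount of 0.1, 74 with the replicate block, 76 with robust empirical Bayes, 52 with the length trend removed, 7 without the libraries high in Crisp1, 5 in the fit on only the 2 groups and 3 to 65 without single libraries. None of the 80 changed sign in any of the 15 alternatives. Where the groups did not overlap, leaving out a library could not turn the sign, so this does not measure the stability of the calls. Of the list medians 547 of 555 recomputed values moved by less than the spread between libraries in the median level of the list. Some medians still changed sign. That of the acrosome list went from 0.04 to -0.05 with the length trend removed. That of the extracellular matrix list went from 0.06 to -0.1 without HFD_STZ_AOS replicate 3. Among genes not called, the sign of the log2 difference turned for Insl3 (-0.15 with the length trend removed, -0.04 without the libraries high in Crisp1, -0.05 to 0.09 without single libraries) and Cd68 (-0.08, -0.22, and -0.2 to 0.18 in the same order). It also turned without single libraries for Star (-0.49 to 0.04), Stra8 (-0.04 to 0.25), Amh (-0.0 to 0.25), Sox9 (-0.13 to 0.02) and Crisp1 (-1.88 to 2.22). The omissions and the fit on only the 2 groups hold fewer libraries, and for the other settings the cause was not tested. RPKM carries no read total, so the depth behind low genes such as Klk1b22, Utf1 and Nos3 is unknown.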
